A study of Mus musculus with 4 samples.

Results

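Pericytes and smooth muscle cells, together called mural cells, were examined here as 61 nuclei of 32806 kept nuclei (0.186%) from the brains of 5XFAD mice. A nucleus was counted as mural when at least 3 of the 10 mural genes Pdgfrb, Rgs5, Abcc9, Kcnj8, Atp13a5, Notch3, Higd1b, Vtn, Acta2 and Myh11 had a UMI (a unique molecular identifier, 1 counted transcript), fewer than 3 of 7 endothelial genes (Flt1, Cldn5, Pecam1, Cdh5, Tek, Mecom, Ptprb) had one, and fewer than 3 of 6 fibroblast genes (Col1a1, Col1a2, Col3a1, Dcn, Bnc2, Slc6a20a) had one. A barcode was kept with at least 500 UMIs, 200 to 2500 genes and at most 10% mitochondrial UMIs. The members were therefore chosen by measured values, and the 23 genes of the rule are described below without a test.

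Nuclei were isolated from frozen brain sections of female 5XFAD mice, which carry mutated human transgenes of familial Alzheimer's disease driven in neurons by the mouse Thy1 promoter, and were sequenced by droplet single-nucleus RNA-seq. The mice were 7 to 10 weeks of age by the labels. They received by vein 100 µL holding 6550000000 extracellular vesicles (EVs), which had been rebuilt from the lipids of adipocyte EVs with a low or a high content of phosphatidylethanolamine (PE) and carried transferrin on their surface. There were 2 libraries with PE-low EVs and 2 with PE-high EVs, each made from 2 pooled mice, so every mouse carried the transgenes and received vesicles. The members were 21 and 19 nuclei in the PE-low libraries (replicates 1 and 2) and 14 and 7 nuclei in the PE-high libraries. Values below are given in the order PE-low 1, PE-low 2, PE-high 1 and PE-high 2.

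Pericytes sit in the basement membrane on the outer face of brain capillaries, where they help to form the blood-brain barrier, set vessel tone and answer to platelet-derived growth factor released by the endothelium. Smooth muscle cells wrap arterioles in contractile rings and are marked by smooth muscle actin and myosin. Both kinds of cell respond to cytokines carried in the blood.

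The 4 libraries held 29472021 to 43272337 UMIs. A member held 504 to 3981 UMIs with a median of 973, and the summed members of a library held 30286, 28987, 13522 and 4637 UMIs. The PE-high 2 sum was thus the shallowest and rested on 7 nuclei. PE-low 1 stood apart from the other libraries in interferon-induced genes, which are given below by library, and values without it are given with the comparisons. Mitochondrial UMIs made up a median of 6.57%, 6.40%, 7.72% and 7.54% of a member's UMIs, against 3.47% to 4.94% over kept nuclei. Pairs of libraries shared 15 to 27 kept barcodes (0.207% to 0.341% of the smaller library) and no member barcode. Levels are UMIs per 1000000 UMIs of the summed nuclei (CPM), in which fewer expressing cells and less RNA per cell cannot be told apart. The p-values of edgeR rest on the spread between these 4 libraries, shared across genes. In the treatment fit each gene's own spread was weighed with that of all genes (prior degrees of freedom 5.55, residual 2). In the fit against all other kept nuclei it was replaced by it (prior infinite, residual 3). The p-values of that fit thus do not measure how a single gene varied between libraries.

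The members carried the pericyte genes of the rule and few UMIs of its smooth muscle genes. Because the rule chose the members by these genes, their levels are a description. Atp13a5 (chr16:29231851-29378732 in mm10, minus strand), a P-type ATPase found in brain pericytes, had 39, 50, 15 and 4 UMIs in the members of the 4 libraries. Its level was 1288, 1725, 1109 and 863 CPM, and 75.4% of members held a UMI against 0.398% of 24886 neuronal barcodes (at least 3 neuronal markers and fewer than 3 genes of each set of the rule, which itself sets these shares apart). Vtn (chr11:78499091-78502324, plus strand), which encodes the matrix protein vitronectin, had 75, 44, 23 and 13 UMIs and 2476, 1518, 1701 and 2804 CPM. A Vtn UMI was found in 77.0% of members, in 0.643% of neuronal barcodes and in 9.05% of endothelial-gated nuclei. The median depth was 973 UMIs in members and 1903 UMIs in neuronal barcodes.

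Pdgfrb, the receptor for platelet-derived growth factor, had 21, 24, 11 and 9 UMIs and lay at 693, 828, 813 and 1941 CPM, with a UMI in 72.1% of members and 0.583% of neuronal barcodes. Notch3, the mural Notch receptor, had 7, 9, 3 and 5 UMIs (231, 310, 222 and 1078 CPM). Both receptors were highest in PE-high 2, where 9 and 5 UMIs carried the value. Rgs5, a regulator of G-protein signalling, lay at 1057, 1414, 2440 and 1941 CPM and had a UMI in 73.8% of members. It was the mural gene shared most with the endothelium, since 56.0% of endothelial-gated nuclei held a UMI and their sums lay at 747, 1171, 975 and 604 CPM.

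Abcc9 and Kcnj8, the subunits of the pericyte ATP-sensitive potassium channel, had 19, 19, 4 and 4 UMIs and 7, 3, 1 and 3 UMIs. Higd1b, of the hypoxia-inducible domain family, had 6, 3, 3 and 1 UMIs. These genes had few counts in every library, and Abcc9 had a UMI in 42.6% of members against 1.29% of endothelial-gated nuclei. The smooth muscle genes were near absent: Acta2, smooth muscle actin, had 1 UMI in 1 member, and Myh11, smooth muscle myosin, had 3 UMIs in 2 members, all in the PE-high libraries. Over the 6 marker genes given for these cells (Pdgfrb, Rgs5, Abcc9, Atp13a5, Notch3, Vtn) each library held UMIs of every gene. The nuclei are called mural below, and the genes of the rule that led in them are those of pericytes.

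The number of mural genes in a member was low. It was 3 in 22 nuclei, 4 in 18, 5 in 11, 6 in 9 and 7 in 1, and the 22 nuclei just inside the threshold had a median of 777 UMIs. Just outside it, 78 kept nuclei had 2 mural genes and met the other limits (26, 23, 14 and 15 by library), with a median of 1330.5 UMIs. At least 3 mural genes were found in 178 kept nuclei in all, of which 116 were barred by endothelial genes and 1 by fibroblast genes. The 116 barred nuclei had a median of 1728.5 UMIs, so most nuclei with mural genes also held endothelial ones and were deeper than the members. A further 39 barcodes met the gene limits at over 10% mitochondrial UMIs. The paper's own limit was 3%, at which 2, 1, 0 and 0 members were left.

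Transcripts of other cells were found in the members. No endothelial gene of the rule was detected in 20 members, 1 in 20 and 2 in 21. At least 3 of 10 neuronal markers were found in 21 members (34.4%), and 27 members held at least 3 markers of neurons or of 1 kind of glia. All 10 neuronal markers had UMIs in the members. Their summed level was 3896, 2932, 2219 and 3450 CPM, against 6149 to 6768 CPM over the other kept nuclei and 6678 to 7006 CPM over near-empty barcodes. The summed level of 14 other endothelial genes was 3698, 3105, 3920 and 6685 CPM in the members and 8341 to 9406 CPM in the endothelial-gated nuclei. The part of these transcripts in the comparisons below was not tested beyond the values given with each.

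The first comparison was the share of nuclei that were mural, in PE-high against PE-low brains. Mural nuclei were 0.226% (95% exact binomial interval 0.140% to 0.346%), 0.262% (0.158% to 0.409%), 0.177% (0.0966% to 0.296%) and 0.0839% (0.0337% to 0.173%) of kept nuclei. The intervals cover counting error only. Both PE-high libraries lay below both PE-low libraries, and PE-high 2 was lowest. The mean was 0.130% ± 0.0655 (SD, n = 2) with PE-high and 0.244% ± 0.0253 (SD, n = 2) with PE-low EVs, a difference of -0.114 percentage points. The two-sided exact permutation test gave p = 0.333, the smallest that 2 against 2 libraries can give. Without PE-low 1 the difference was -0.132 points. PE-high libraries were also shallower: the median kept nucleus held 1755, 2198, 1403 and 1443 UMIs. With every barcode thinned to 500 UMIs the counts were 20, 20, 11 and 12, or 0.215%, 0.276%, 0.139% and 0.144%, so the groups still did not overlap and the gap between the PE-high libraries closed.

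Endothelial-gated nuclei, chosen by the mirror rule, were 1.33%, 0.772%, 0.328% and 0.324% of kept nuclei (123, 56, 26 and 27 nuclei). There were 17.1, 33.9, 53.8 and 25.9 mural nuclei per 100 endothelial-gated ones, and on this measure the groups overlapped. PE-low 1 had the lowest ratio and the most endothelial-gated nuclei.

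**Figure D1:**
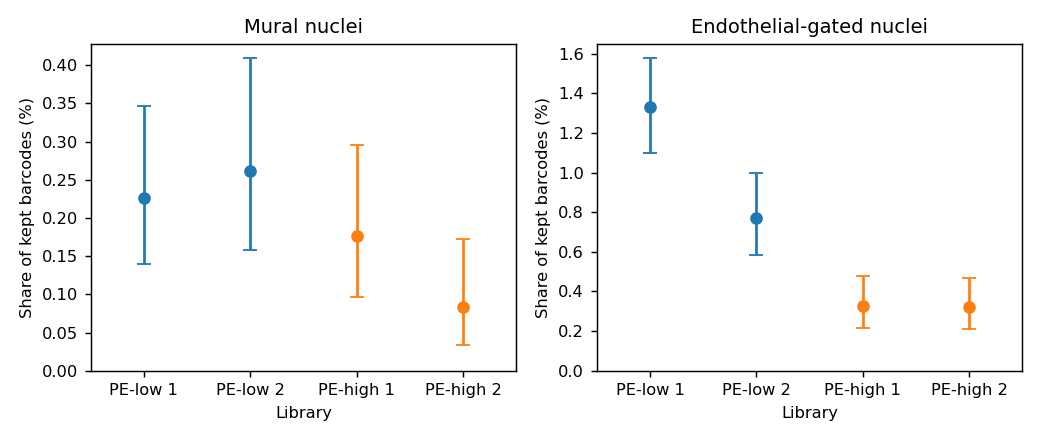
Points give mural (left) and endothelial-gated (right) nuclei as a percentage of kept barcodes in each library, with 95% exact binomial intervals as bars. Mural shares run from 0.0839% in PE-high 2 to 0.262% in PE-low 2, and endothelial-gated shares from 0.324% in PE-high 2 to 1.33% in PE-low 1.

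The members were then compared with the 232 endothelial-gated nuclei of the same libraries, to find what set the mural nuclei apart from their nearest neighbours in the vessel wall by genes outside the rule. Of 402 genes tested, 26 were higher in mural nuclei (6.47%) and 36 lower (8.96%) at an adjusted p under 0.1 (edgeR quasi-likelihood test on library sums with library as a block). Without PE-low 1, 23 genes were higher and 7 lower, without PE-low 2 these were 18 and 16, without PE-high 1 they were 17 and 7, and without PE-high 2 they were 28 and 22. The highest-fold genes included genes of signalling and contractile proteins.

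Plcl1 (chr1:55405921-55754285, plus strand), a phospholipase C-like protein that binds inositol phosphates, had 63, 85, 19 and 10 UMIs in the members. Its level was 2080, 2932, 1405 and 2157 CPM in mural nuclei and 220, 286, 0 and 362 CPM in endothelial-gated nuclei, and every mural sum lay above every endothelial one. The log2 fold change was 3.60 (SE 0.49, edgeR adjusted p = 0.00245) and 3.99 without PE-low 1 (adjusted p = 0.00955). Inpp4b, a phosphatase of the same lipid signalling, had 15, 14, 8 and 5 UMIs, with 495, 483, 592 and 1078 CPM in mural nuclei and 122, 26.0, 0 and 0 CPM in endothelial-gated nuclei, and rose by 3.60 (SE 0.84, adjusted p = 0.0374).

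Cald1 (chr6:34598500-34775473, plus strand), the actin-binding caldesmon of smooth muscle, had 23, 38, 10 and 5 UMIs and lay at 759, 1311, 740 and 1078 CPM against 139, 156, 150 and 242 CPM (log2 fold change 2.75, SE 0.33, adjusted p = 0.00131). Dlc1, a GTPase-activating protein and one of the mural markers outside the rule, had 47, 83, 20 and 4 UMIs and lay at 1552, 2863, 1479 and 863 CPM against 336, 286, 338 and 523 CPM (2.45, SE 0.44, adjusted p = 0.0156). Both genes bear on the actin cytoskeleton, and both were higher in every mural sum than in any endothelial sum. Plxdc2 (chr2:16356304-16755839, plus strand), a plexin-domain membrane protein, had 27, 33, 9 and 7 UMIs and lay at 892, 1138, 666 and 1510 CPM against 145, 130, 37.5 and 80.5 CPM (3.32, SE 0.37, adjusted p = 9.70e-04).

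Pde8b, a phosphodiesterase that breaks down cyclic AMP, was higher by 2.55 (SE 0.33, edgeR adjusted p = 0.00181), from 1189, 586, 666 and 1078 CPM against 168, 117, 225 and 201 CPM. Slco3a1, an organic anion transporter, Gpc6, a glypican, and Grm3, a glutamate receptor, were higher by 3.01, 2.57 and 2.56. Of the mural markers outside the rule that could be tested, 3 of 3 were higher, among them Dlc1 and the transcription factor Ebf1 (0.92, adjusted p = 0.0966). Ebf1 had 33, 41, 19 and 13 UMIs and its 1090 to 2804 CPM in mural nuclei stood beside 885 to 1007 CPM in the endothelium. The calcium channel subunit Cacna1c was higher by 1.82 and the phosphodiesterase Pde4d by 1.64 (adjusted p = 0.0464 and 0.0483). In the fit against all other kept nuclei given below, Cald1, Dlc1 and Ebf1 were higher (3.87, 1.89 and 3.58 with TMM scaling). Inpp4b, Gpc6, Grm3 and Cacna1c did not pass there (0.10, -0.41, -0.56 and -1.22), and Inpp4b did without TMM (1.26). Pde8b and Pde4d were not among the genes called higher there with TMM. Mbp, an oligodendrocyte marker, was also higher than in endothelial-gated nuclei (1.24, edgeR adjusted p = 0.0618). The part of other cells' transcripts in this was not tested.

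The genes lower in mural nuclei that the naming rule gave included endothelial and interferon-induced genes. Palmd, a paralemmin-related protein, fell by 2.32 on the log2 scale with 7 UMIs in all members (edgeR adjusted p = 0.0340), and Fn1, fibronectin, fell by 2.07 with 11 UMIs (adjusted p = 0.0739). Without PE-low 1 they stood at -1.76 and -1.91 (edgeR adjusted p = 0.123 and 0.182). Of 9 other endothelial genes tested, 4 were lower, namely Adgrl4, Slc2a1, Slco1c1 and Ly6c1. Slco1c1, a thyroid hormone transporter of the blood-brain barrier, lay at 198, 138, 222 and 216 CPM in mural nuclei and 747, 546, 525 and 886 CPM in endothelial-gated nuclei, without overlap. Without PE-low 1 none of the 4 was called, and Slco1c1 stood at -1.25 (adjusted p = 0.165). The interferon-induced genes Herc6, Cmpk2, Gbp2 and Gbp5 were also lower, with log2 fold changes of -1.63, -1.62, -1.59 and -1.85, and without PE-low 1 they stood at -1.45, -1.38, -1.29 and -1.65, of which Gbp5 alone was called (edgeR adjusted p = 0.0187).

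**Figure D2:**
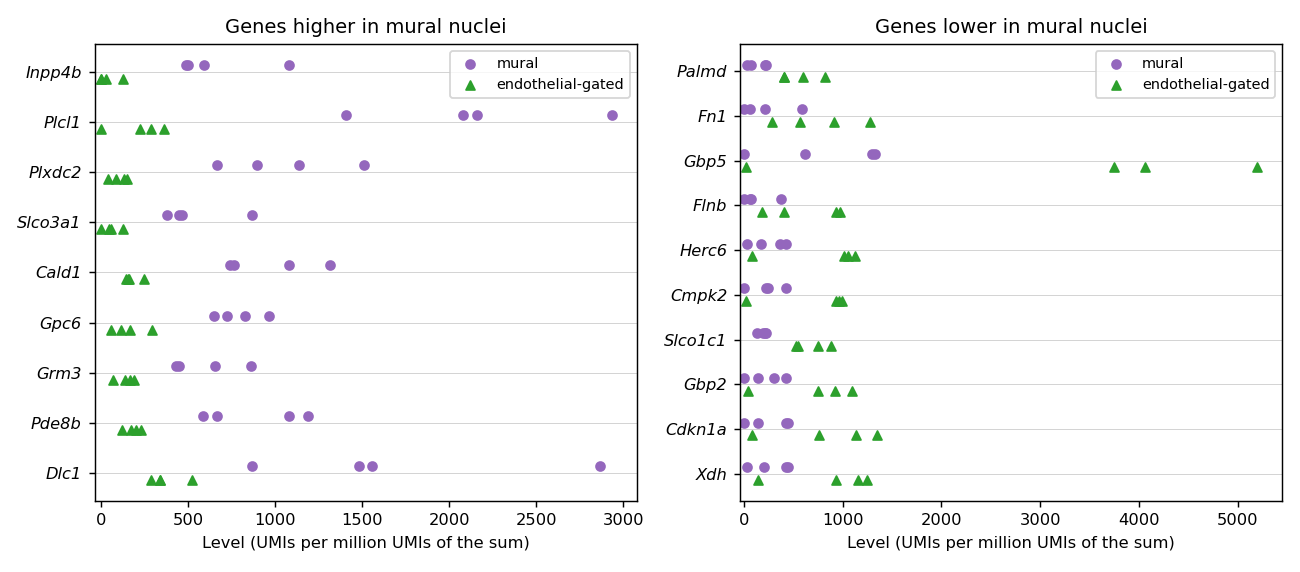
For the named genes, points give the level in CPM of the mural sum and of the endothelial-gated sum of each library, with genes higher in mural nuclei on the left and lower ones on the right. For Plcl1, Plxdc2 and Cald1 all 4 mural points lie above all 4 endothelial points. The genes on the right were lower in mural nuclei with 4 libraries, and of them Gbp5 alone was called when PE-low 1 was left out.

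Against all other kept nuclei, mostly neurons, the members were higher for vascular and matrix genes. Of 14595 genes tested, 420 were higher (2.88%) and 1544 lower (10.6%) with TMM scaling. Scaling to the UMIs of each sum gave 893 higher (6.12%) and 383 lower (2.62%), because TMM moved the median of all genes from -0.20 to -1.26 on the log2 scale. Counts of higher genes are therefore those with TMM, and a gene is called lower here only under both scalings. The share of higher calls against lower ones depended on this choice.

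The gene with the largest fold was Slc38a11 (chr2:65316430-65364034, minus strand), an amino acid transporter of the Slc38 family. It had 17, 12, 4 and 2 UMIs, or 561, 414, 296 and 431 CPM, against 1.71 CPM over the other kept nuclei. The log2 fold change was 6.92 (SE 0.50, edgeR adjusted p = 2.20e-40). Every library lay far above the rest, and the lowest sum was that of PE-high 1. Ndufa4l2, a mitochondrial protein induced by low oxygen, followed with 5, 4, 0 and 1 UMIs (log2 fold change 5.60), and the ADP-ribosyltransferase family gene Art3 had 10, 9, 5 and 0 UMIs (5.27, adjusted p = 2.64e-19). Eva1b, Morrbid, Egflam and Ifitm1 were higher by 5.59, 5.29, 5.16 and 5.25.

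Of 13 mural markers outside the rule that were tested, 12 were higher under both scalings, with a median log2 fold change of 3.65 against -1.26 over all genes. They included Cspg4, the proteoglycan NG2, with 8, 3, 1 and 1 UMIs, and the transcription factors Foxc1 and Zic1. Without PE-low 1, 9 were higher. Smooth muscle genes of the list were low in count. Of 11 tested contractile genes 5 were higher: the light chain Myl9 (12 UMIs in 9 nuclei, 5.18), its kinase Mylk (4, 6, 0 and 0 UMIs), the tropomyosin Tpm2 (2, 2, 0 and 0 UMIs), Cald1 and Mrvi1, a substrate of cyclic GMP-dependent kinase (2, 1, 4 and 1 UMIs). Tagln had 2, 0, 1 and 0 UMIs and Cnn1 had none. Mylk, Tpm2, Mrvi1, Tagln, Cnn1 and Cspg4 were chosen after their values were seen.

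Of 20 tested basement membrane genes, 11 were higher (median 1.99), and 9 without PE-low 1. Nid1, which links laminin to collagen IV, had 13 UMIs in 10 members and a log2 fold change of 5.56 (adjusted p = 2.77e-12). Itga1, the collagen and laminin receptor subunit, had 9, 20, 9 and 3 UMIs, or 297, 690, 666 and 647 CPM against 7.32 CPM in the rest (5.11, adjusted p = 5.72e-28), and PE-low 1 was lowest. The laminin chains Lama2 and Lamc1 had 14, 12, 5 and 0 UMIs and 5, 13, 4 and 3 UMIs, with log2 fold changes of 1.97 and 1.72. Lamc3 was higher by 5.56, from 2, 2, 1 and 1 UMIs. Sparc, a collagen-binding matrix protein, lay at 594, 414, 148 and 1294 CPM (2.31, adjusted p = 2.01e-05). Against endothelial-gated nuclei Itga1 and Sparc had log2 fold changes of 0.76 and 0.15 and did not pass the test (edgeR adjusted p = 0.208 and 0.875).

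Of 23 genes of the Notch, platelet-derived growth factor and transforming growth factor pathways that were tested, 6 were higher: Pdgfd, Notch1, Hes1, Tgfbr2, S1pr1 and S1pr3. Their UMIs were few, from 8 for Hes1 and S1pr3 to 16 for Notch1, and 4 of the list were higher without PE-low 1. The whole list lay at 2179, 2104, 1849 and 2372 CPM in mural nuclei. In endothelial-gated nuclei it lay at 2039, 2238, 1650 and 2416 CPM. Against these, 1 gene of the list could be tested. It was lower in mural nuclei and was not called without PE-low 1. Among 26 genes of vessel tone, 2 were higher, the endothelin receptor Ednra (4, 3, 3 and 0 UMIs, log2 fold change 5.11) and the cyclic GMP phosphodiesterase Pde5a (2, 5, 5 and 0 UMIs, 3.09). Prkg1, the cyclic GMP-dependent kinase, had 28, 42, 14 and 4 UMIs and did not pass the test (-0.45, adjusted p = 0.621, and 0.80 without TMM). Of 22 ion channel and calcium store genes, 4 were higher, among them Kcnj12, Ano1 and Itpr2, and Kcnma1, Kcnq5, Ryr2 and Ryr3, which neurons also use, were lower under both scalings. Ano1, the calcium-activated chloride channel of pericytes, had 4, 7, 3 and 0 UMIs. The genes of this paragraph with fewer than 20 UMIs were chosen after their values were seen.

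Transporter genes were higher in 5 of 17 tested, among them Slc30a10, a manganese exporter, Slc22a8, an organic anion transporter, Slc16a12, a creatine transporter, and Abcc4, an efflux pump. Slc16a12 had 4, 7, 4 and 2 UMIs and a log2 fold change of 5.05 (SE 0.62, adjusted p = 1.83e-13). Of 16 genes of amyloid handling, 3 were higher, namely Abcb1a, Ece1 and Apod. Abcb1a is also on the list of other endothelial genes. Against endothelial-gated nuclei 4 genes of amyloid handling were tested and 0 called, and Apod stood at -0.04 (edgeR adjusted p = 0.977). Apoe had 46, 30, 33 and 5 UMIs and lay at 1519, 1035, 2440 and 1078 CPM, and it did not pass the test with TMM (0.08, adjusted p = 0.944) while it did without TMM (adjusted p = 0.00272). Clu and App had 22 and 52 UMIs and did not pass with TMM. The genes Slc30a10, Slc22a8, Slc16a12, Abcc4 and Abcb1a, had fewer than 20 UMIs and were, with Ece1, chosen after their values were seen.

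Genes of PE metabolism had few counts in the members. Of 17 tested genes of PE metabolism, 0 were higher (1 without TMM) and 0 lower under both scalings, and none had 20 UMIs. Their summed level was 925, 966, 961 and 1294 CPM in the members and 851 to 938 CPM over the other kept nuclei. PE-high 2, the sum of 4637 UMIs, held 6 UMIs of the list. Of 13 genes of flippases and scramblases, which move phospholipids between membrane leaflets and not all of which move PE, Atp10a was higher (4, 10, 3 and 1 UMIs). Atp11b, Atp9b and Xkr4 were lower. Tmem30a, the shared flippase subunit, had 13, 5, 1 and 1 UMIs and did not pass the test (adjusted p = 0.774). Of 15 genes of endoplasmic reticulum stress 0 were higher with TMM and 1 without, of 5 genes of vascular calcification 0, and of 18 immediate early and heat shock genes 4 (Jund, Ier2, Zfp36 and Klf2).

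Marker lists of other cell types gave the composition of the members in the same fit. All 13 tested endothelial genes outside the rule were higher than in the rest (9 without PE-low 1), as were all 4 haemoglobin genes and 3 of 8 fibroblast genes, Igf2, Cped1 and Mgp. Mgp, a matrix protein that inhibits calcification, had 10, 14, 15 and 2 UMIs. Of the neuronal, astrocyte, microglia and choroid plexus lists 0 genes were higher, and of the oligodendrocyte list 0 with TMM and 1 without. In the list of oligodendrocyte precursor cells Cspg4, which pericytes also express, was higher, and in the neuronal list Syt1 was lower under both scalings. The 10 genes with the lowest fold had no UMI in any member. Among them Grik1, a kainate receptor subunit of neurons, lay at 177 CPM in the rest and was at least 4.57-fold lower in the members, counted against 3 UMIs over all of them.

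Of 25 tested interferon and inflammation genes, 21 were higher in mural nuclei than in the rest (median 3.49), and 17 without PE-low 1. Their levels differed between the PE-low libraries. Over 31 genes of the list the members held 51, 307, 198 and 79 UMIs, or 1684, 10591, 14643 and 17037 CPM. PE-low 1, with the most members, thus had the lowest level by far, and PE-low 2 lay beside the PE-high libraries. In endothelial-gated nuclei PE-low 1 was lowest too, with 2050, 34059, 30159 and 29471 CPM, while the order of the other 3 libraries was the reverse of the mural one. In the other kept nuclei the list lay at 252, 624, 402 and 432 CPM and in near-empty barcodes at 292, 459, 371 and 410 CPM. Over the list as a whole the libraries there differed by less. Single genes were low in PE-low 1 there too. In the other kept nuclei, which include the endothelial-gated ones, Cxcl10 lay at 0.0564, 102, 50.4 and 50.3 CPM. Ifit1 lay at 2.09, 45.1, 26.9 and 30.1 CPM, Iigp1 at 0.564, 44.5, 21.4 and 27.3 CPM and Gbp5 at 0.845, 44.5, 26.0 and 32.4 CPM. The interferon-induced genes were grouped after the values of the list were seen, and the libraries within a treatment have no test.

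Of the list, 7 genes with at least 20 UMIs had none in the 21 members of PE-low 1, namely Cxcl10, Ifit1, Ifit3, Isg15, Iigp1, Gbp5 and Vcam1. A count of 0 there allows up to 99.1 CPM. Cxcl10 (chr5:92346638-92348889, minus strand), a chemokine that draws T cells and is induced by interferon gamma, had 0, 91, 55 and 27 UMIs in 0, 11, 10 and 5 members. Its level was 0, 3139, 4067 and 5823 CPM, so that the lowest of the 3 other libraries was at least 31.7-fold higher than PE-low 1. In endothelial-gated nuclei the level was 0, 9120, 7315 and 5153 CPM.

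Ifit1 (chr19:34640871-34650009, plus strand), which binds viral RNA caps, had 0, 34, 17 and 11 UMIs (0, 1173, 1257 and 2372 CPM, at least 11.8-fold). Iigp1, an interferon-induced GTPase, had 0, 38, 11 and 11 UMIs (at least 8.21-fold), and Gbp5, a guanylate-binding protein, had 0, 18, 18 and 6 UMIs (0, 621, 1331 and 1294 CPM, at least 6.27-fold). Isg15, a ubiquitin-like protein, had 0, 21, 8 and 2 UMIs (4.35-fold by the same measure, resting on the 2 UMIs of PE-high 2). Ifit3 had 0, 10, 6 and 6 UMIs (at least 3.48-fold). These folds take the lowest of the other levels as measured, without its own counting error. In each of these genes the 3 other libraries all held UMIs. Vcam1, an adhesion molecule for leukocytes, had 0, 7, 23 and 1 UMIs in 6 members, 15 of them in a single nucleus. Its level in PE-high 2 rested on 1 UMI, so no least fold is given. Near-identical family members (Ifit, guanylate-binding and immunity-related GTPase genes) can share reads, so single members of these families are uncertain.

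Not all of the list followed this order. Cxcl12, a chemokine of vascular cells, had 21, 5, 3 and 2 UMIs and lay at 693, 172, 222 and 431 CPM, highest in PE-low 1. Nfkbia, the inhibitor of NF-kappa-B, had 5, 11, 10 and 3 UMIs (165, 379, 740 and 647 CPM), and B2m, the light chain of MHC class I, had 4, 11, 5 and 1 UMIs (132, 379, 370 and 216 CPM). In both the PE-low 1 value was the lowest but not 0.

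**Figure D3:**
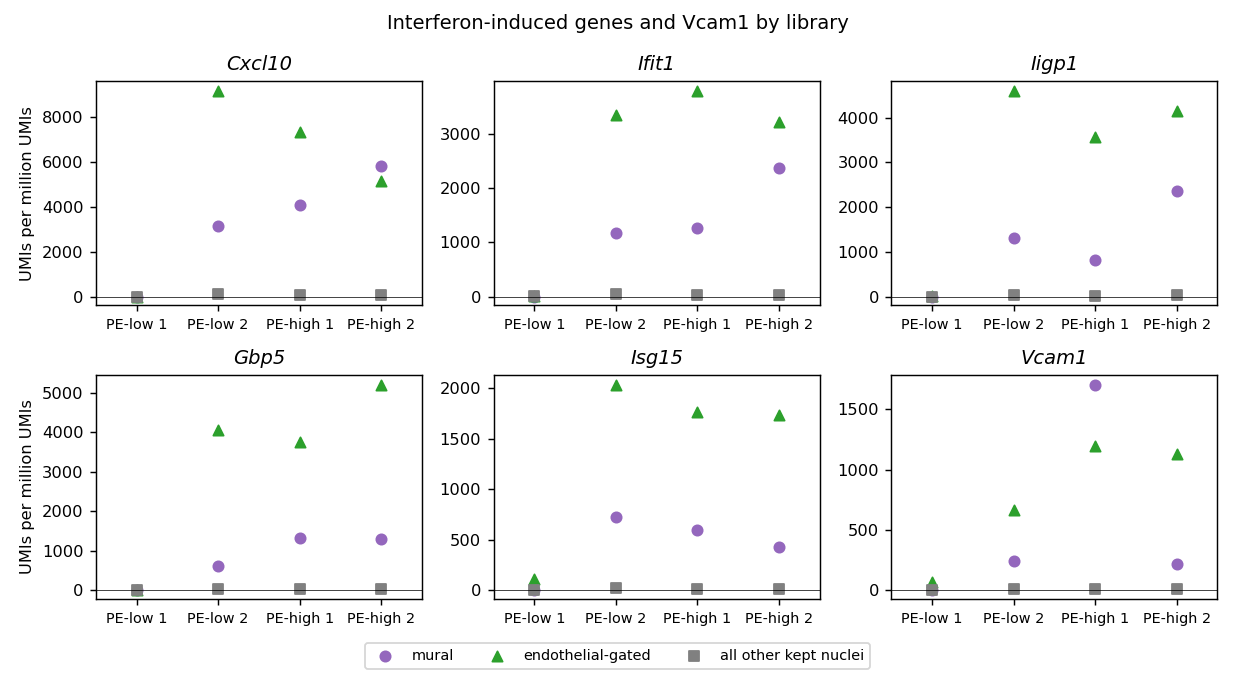
Each panel gives the level in CPM of 1 gene in the mural, endothelial-gated and other kept nuclei of each library. PE-low 1 lies at 0 in mural nuclei for every gene shown, and in the 3 other libraries the endothelial-gated level of Gbp5 (3751 to 5194 CPM) lies above the mural level (621 to 1331 CPM).

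The promoters of 5 of the 7 genes were in the RefSeq table for GRCm38.p6, each as 250 bases before to 50 bases after the gene's start, and 4 are shown because their genes carried the difference between libraries. The letters GAAANNGAAA of the interferon-stimulated response element, searched on both strands with overlapping matches counted, are in capitals (TTTCNNTTTC where the match is on the other strand). Vcam1 and Iigp1 have no window in the table. Sequences read 5′ to 3′ on the gene's strand.
Cxcl10 promoter (chr5:92348840-92349139, minus strand): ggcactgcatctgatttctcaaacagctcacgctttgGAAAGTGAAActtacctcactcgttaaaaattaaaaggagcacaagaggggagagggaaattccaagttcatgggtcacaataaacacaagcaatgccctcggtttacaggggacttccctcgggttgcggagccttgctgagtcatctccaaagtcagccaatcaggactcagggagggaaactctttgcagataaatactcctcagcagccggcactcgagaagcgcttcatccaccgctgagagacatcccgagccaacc
Ifit1 promoter (chr19:34640639-34640938, plus strand): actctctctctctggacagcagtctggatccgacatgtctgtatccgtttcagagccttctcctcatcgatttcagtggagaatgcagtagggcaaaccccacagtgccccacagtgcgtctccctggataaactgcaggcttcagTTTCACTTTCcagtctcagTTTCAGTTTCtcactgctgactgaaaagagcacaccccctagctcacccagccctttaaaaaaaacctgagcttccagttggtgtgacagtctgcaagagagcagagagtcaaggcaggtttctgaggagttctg
Isg15 promoter (chr4:156200769-156201068, minus strand): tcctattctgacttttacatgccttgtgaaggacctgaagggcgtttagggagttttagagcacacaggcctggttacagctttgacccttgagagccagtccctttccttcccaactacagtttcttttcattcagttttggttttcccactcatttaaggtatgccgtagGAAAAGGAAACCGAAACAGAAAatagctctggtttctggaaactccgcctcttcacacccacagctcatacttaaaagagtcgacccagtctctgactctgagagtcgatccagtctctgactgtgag
Gbp5 promoter (chr3:142496684-142496983, plus strand): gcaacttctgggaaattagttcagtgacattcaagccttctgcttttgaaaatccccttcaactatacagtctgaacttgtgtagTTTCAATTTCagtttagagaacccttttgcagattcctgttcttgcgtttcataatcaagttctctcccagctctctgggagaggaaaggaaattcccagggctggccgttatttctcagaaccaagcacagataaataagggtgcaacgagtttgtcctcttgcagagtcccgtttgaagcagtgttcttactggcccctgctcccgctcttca
The Cxcl10 and Gbp5 windows hold 1 match each, 213 and 165 bases before the start. The Ifit1 window holds 2, at 85 and 104 bases, and the Isg15 window holds 3 that overlap, at 66 to 78 bases. All 5 windows, Ifit3 included, hold a match, as do 5 of 19 windows of the other genes of the list (26.3%) and 1131 of 32851 windows in all (3.44%). The 5 genes were picked by their values in these data and were known as interferon-induced, so these shares are not a test. A match is a description of these letters and not of a bound factor.

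The members were also divided by whether they held endothelial genes of the rule, as a description. In the 3 libraries without PE-low 1, the 14 members with no endothelial gene of the rule had 18 Cxcl10 UMIs in 5 nuclei (1323 CPM), and the 26 members with 1 or 2 such genes had 155 UMIs in 21 nuclei (4621 CPM). The whole list lay at 4777 and 15474 CPM in these nuclei. The 2 sets held 13606 and 33540 UMIs in all, and depth was not matched between them. In PE-high 2 the levels of Cxcl10 were 5438 and 6076 CPM, so the gap was not seen in that library, where 3 and 4 nuclei stood behind them. Over all 4 libraries Vtn lay at 3027 CPM without and 1657 CPM with endothelial genes, Plcl1 at 4001 and 1709 CPM and Dlc1 at 3078 and 1622 CPM. Pdgfrb (872 and 828 CPM) and Cald1 (1026 and 967 CPM) lay close together, and Pdgfrb was higher with endothelial genes in PE-low 2 and PE-high 1. Members with under 3 neuronal markers had Cxcl10 at 4555 CPM and those with 3 or more at 2229 CPM in the same 3 libraries. These splits were made after the data were seen, pool nuclei over libraries and carry no test. Vtn and Pdgfrb are themselves genes of the rule. The source of the Cxcl10 transcripts was not tested.

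Against endothelial-gated nuclei, 5 of 13 tested genes of the list were lower in mural nuclei (Gbp5, Gbp2, Isg15, Iigp1 and Ifit1) and 0 higher, with a median log2 fold change of -0.88 against -0.09 over all genes. Without PE-low 1, 2 were lower, Gbp5 and Iigp1 (edgeR log2 fold change -1.17, adjusted p = 0.0812). Cxcl10 did not pass (-0.54, SE 0.32, adjusted p = 0.395), and its mural level was above the endothelial one in PE-high 2 alone.

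The comparison of PE-high with PE-low EVs in the members themselves called 3 of 238 genes. Higher calls were 2 (0.840%) and lower calls 1 (0.420%), and 39 genes had an unadjusted p under 0.05. The 2 libraries of a group did not overlap those of the other in 130 of the 238 genes (54.6%), so the absence of overlap was common. Without PE-low 1, and likewise without PE-high 1, edgeR called 0 genes, and without PE-low 2 it called 12 and without PE-high 2 it called 16.

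Haemoglobin transcripts were the genes that rose. Hbb-bs (chr7:103826534-103828096, minus strand), adult beta-globin of red blood cells, had 2, 0, 96 and 10 UMIs, or 66.0, 0, 7100 and 2157 CPM. Both PE-high libraries lay above both PE-low libraries, and PE-high 1 held most of the UMIs. The UMIs came from 9 members (2, 0, 5 and 2 by library), with up to 34 in a single nucleus. In PE-high 2 a single nucleus gave 9 of the 10 UMIs. Members with at least 4 mural genes held 1, 0, 36 and 0 UMIs of Hbb-bs. The log2 fold change was 6.89 (SE 1.03, edgeR adjusted p = 0.0255), and the ratio of pooled counts was 173 (95% interval 46.7 to 1447). That interval takes every UMI as independent. It covers counting error only, and not the spread between nuclei or libraries. Hba-a1, alpha-globin, had 0, 0, 24 and 4 UMIs (0, 0, 1775 and 863 CPM) in 4 members, and the 4 UMIs of PE-high 2 came from 1 nucleus. It was at least 30.5-fold higher with PE-high EVs (edgeR log2 fold change 7.77, SE 1.05, adjusted p = 0.0255). The near-identical copies Hba-a2 and Hbb-bt can share these reads and had 0, 0, 23 and 1 UMIs and 0, 0, 5 and 1 UMIs.

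The 4 haemoglobin genes summed to 66.0, 0, 10945 and 3450 CPM in mural nuclei, 319, 533, 2251 and 0 CPM in endothelial-gated nuclei, 47.1 to 66.4 CPM in the other kept nuclei and 211 to 308 CPM in near-empty barcodes. In the endothelial-gated sums PE-high 1 was highest and PE-high 2 was at 0. With a replicate block Hbb-bs was still called (adjusted p = 0.0185) and Hba-a1 was not (0.130). Without PE-low 1 the log2 fold changes were 9.11 and 7.33 and neither passed (adjusted p = 0.539), with 1 library left in the PE-low group. Over 11 alternative settings that gave a value, Hbb-bs passed in 8 (adjusted p from 5.61e-20 to 0.539).

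Erbb4 (chr1:68032186-69108059, minus strand), a neuregulin receptor of interneurons, had 42, 30, 1 and 0 UMIs, or 1387, 1035, 74.0 and 0 CPM. Both PE-low libraries lay above both PE-high libraries. It fell by 4.36 on the log2 scale (SE 0.87, edgeR adjusted p = 0.0981), with a ratio of pooled counts of 0.0453 (95% interval 0.00113 to 0.261). This interval, too, covers counting error only. The UMIs came from 8 members, and single nuclei gave 21 of the 42 and 29 of the 30. Of the 73 UMIs, 38 lay in members with at least 3 neuronal markers, and members with under 3 markers of each other cell type held 5 UMIs. DESeq2 and the replicate block did not call it (adjusted p = 0.148 and 0.215).

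The remaining genes named by rule did not pass the threshold. Ly6a, a surface antigen of vessels, had 8, 10, 18 and 7 UMIs (264, 345, 1331 and 1510 CPM, log2 fold change 2.13, SE 0.50, edgeR adjusted p = 0.116). Myl6, a myosin light chain, lay at 363, 276, 887 and 1294 CPM (1.62, adjusted p = 0.266) and Jund, a transcription factor of the AP-1 family, at 231, 103, 518 and 1510 CPM (2.27, adjusted p = 0.306). Their groups did not overlap, and PE-high 2 was highest in each. Kirrel3, Mdga2 and Ctnna2, adhesion and cytoskeletal genes of neurons, had 25, 25, 1 and 0 UMIs, 23, 28, 1 and 0 UMIs and 25, 17, 0 and 0 UMIs, with adjusted p of 0.111, 0.111 and 0.116. Tmeff2, a neuronal membrane protein, had 30, 31, 2 and 1 UMIs (-2.61, adjusted p = 0.116), of which single nuclei gave 27 and 30 in the PE-low libraries. In PE-low 2 a single nucleus also gave 24 of the 25 Kirrel3 UMIs, whereas those of Mdga2 and Ctnna2 came from 4 to 6 nuclei in each PE-low library. Of the 52 Mdga2 and 42 Ctnna2 UMIs, 36 of each lay in members with at least 3 neuronal markers. Members with under 3 markers of each other cell type held 2 and 6.

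**Figure D4:**
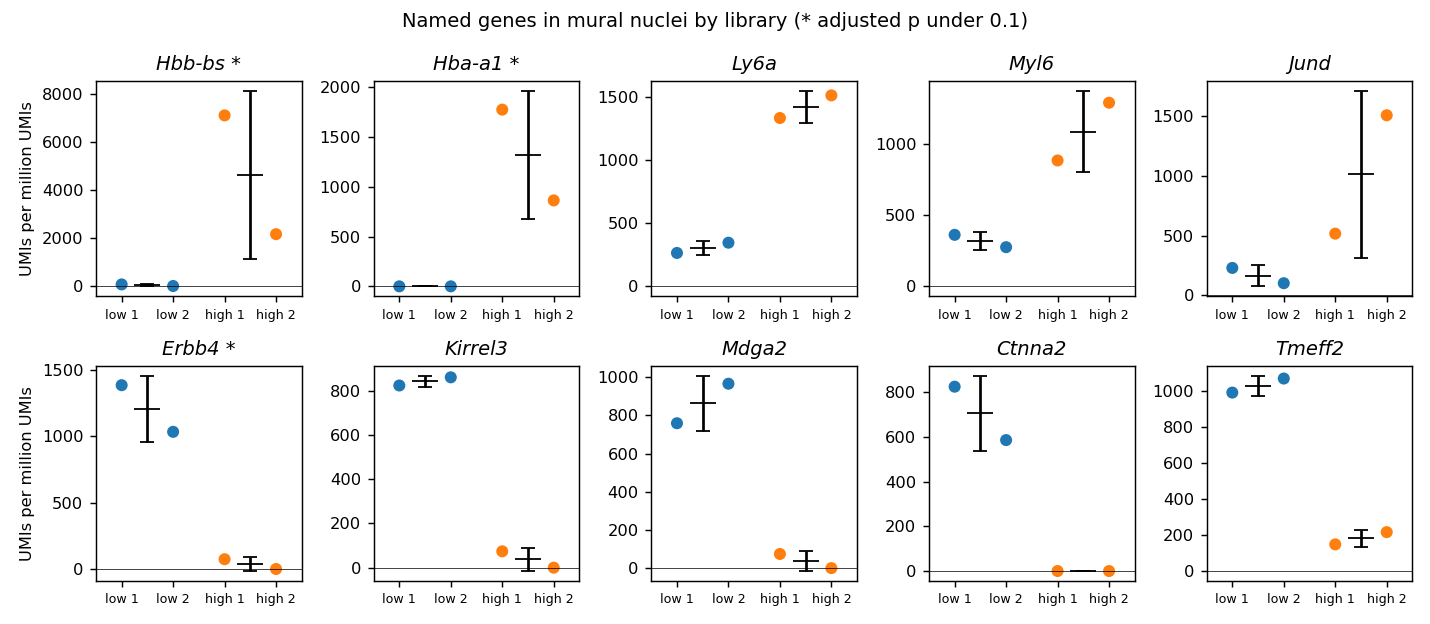
Each panel gives the level in CPM of 1 named gene in the summed mural nuclei of each library, and an asterisk marks an adjusted p under 0.1. Hbb-bs and Hba-a1 are high in PE-high 1 and PE-high 2 (7100 and 2157 CPM for Hbb-bs), and Erbb4, Kirrel3, Mdga2, Ctnna2 and Tmeff2 are high in both PE-low libraries.

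In the groups of pericyte genes that could be tested no gene passed the threshold for treatment. Of the 3 mural markers outside the rule, 1 contractile gene, 1 ion channel gene, 4 genes of vessel tone, 3 of the basement membrane, 2 of amyloid handling and 2 transporters that could be tested, 0 were called (edgeR quasi-likelihood). Plcl1 and Cald1 had log2 fold changes of -0.61 and -0.31 with adjusted p of 0.539 and 0.808. Of the interferon and inflammation list 6 genes were tested, all with a positive log2 fold change (median 1.40 against 0.09 over all genes), and 0 were called. Without PE-low 1 the median over the 5 then tested was 0.29 and Iigp1 stood at -0.22. No gene of PE metabolism, of the flippases or of endoplasmic reticulum stress had counts enough for this test. Genes simulated with a log2 change of 2 were recovered in 55.8% and with 1 in 0% of those tested, so changes of a log2 unit were not detectable at this depth. At a log2 change of 2 the simulation had 129 changed genes among 316 tested, with the same spread for every gene. It therefore does not give the recovery where few genes change or where genes differ in spread.

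Whether the effect of treatment differed between mural and endothelial-gated nuclei was tested by the interaction of treatment and class. Of 402 genes, edgeR called 0 (0%), with 15 at an unadjusted p under 0.05, and DESeq2 called 0, with 10. Hbb-bs, Hba-a1 and Erbb4 did not pass the low-count filter of this fit. Leaving out PE-low 2, PE-high 1 or PE-high 2 edgeR also called 0. Without PE-low 1 it called 32 of 387 genes, 6 with a higher and 26 with a lower change in mural than in endothelial-gated nuclei, in a fit chosen after seeing the data, with 1 PE-low library and 1 residual degree of freedom, so that the lone library was assumed to vary like the others. Among the 32, Hbb-bs differed by 9.28 and Hba-a1 by 6.81 on the log2 scale (edgeR adjusted p = 4.04e-05 and 0.0338) and Syt1, a neuronal marker, by -2.87 (adjusted p = 0.00703). Over those 3 libraries the neuronal markers summed to 2932, 2219 and 3450 CPM in mural and 1847, 3188 and 3020 CPM in endothelial-gated nuclei. With all 4 libraries no change was shown to be particular to mural nuclei.

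The 10 fibroblast-gated nuclei (4, 4, 2 and 0 by library) were the other vascular class compared. With 3 libraries and 53 genes tested, edgeR called 0 genes (0%), with 5 at an unadjusted p under 0.05, and DESeq2 called 5. Without PE-low 1 edgeR called 0 of 67 genes, with 0 at an unadjusted p under 0.05, and without PE-high 1 it called 38 of 182. Slc6a20a, a proline transporter that was among the 6 fibroblast genes of the rule, was itself frequent in the members, with 16, 10, 4 and 1 UMIs in 24 nuclei. Its level was 528, 345, 296 and 216 CPM, against 46.3, 13.0, 37.5 and 40.3 CPM in endothelial-gated nuclei and 4.90 CPM in all other kept nuclei. The mural sums lay above the endothelial ones in every library, and as a gene of the rule it has no test.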

How the data were processed

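The deposited values were raw UMI counts per gene and barcode, which the authors made from 10x Genomics 3′ libraries with Cell Ranger 7.1.0 on mm10 (build and tool per the submitters' processing notes), 1 unfiltered matrix per library, with gene and barcode lists as the other deposited files. No doublet caller was run. Barcodes were kept and classed as the report states. Members and gene lists were chosen with earlier results of these data known. UMIs were summed per library and class and tested with edgeR 4.0.16 (quasi-likelihood, TMM, filterByExpr, Benjamini-Hochberg over all tested genes, threshold 0.1) in R 4.3.3, with library as a block between classes. The study's own tests took nuclei as replicates, and library sums were used instead. DESeq2 1.42.0 was an alternative. The 23 genes of the rule stayed in the fits but out of counts of calls. Near-empty barcodes were those ranked 45000 to 90000 by UMIs.

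Fits were tested on simulated data with 200 genes changed. TMM against all other nuclei called unchanged genes lower there, which is why lower calls need both scalings. Log2 fold changes are mural over comparison nuclei or PE-high over PE-low. Genes were named by rule: all mural genes of the rule, up to 5 genes per direction for treatment and 10 for each class comparison (at least 50 UMIs), and list genes with at least 20 UMIs. Others are said to be chosen after their values were seen. Lists are 26 sets of genes. Libraries totalled 41470611, 43272337, 32515094 and 29472021 UMIs. Same-numbered libraries shared only a number: their deviations correlated at 0.0862 over 238 genes. A planned comparison of members with and without Acta2 or Myh11 was not run, since 2 nuclei held either. Positions are from the mm10 gene annotation and promoter windows from RefSeq. Some items that the naming rule gave are not reported here.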

Additional observations from a re-analysis of the deposited data

How the results depend on the processing

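None of the genes named by their size in a comparison reversed direction under the settings run. The balance of higher and lower calls did reverse. Against all other kept nuclei 420 higher and 1544 lower became 893 and 383 without TMM. Against endothelial-gated nuclei 26 higher and 36 lower became 19 and 14 with DESeq2, and 23 and 7 without PE-low 1. Among all list and rule genes with a value, without TMM 18 of 118 changed sign against all other kept nuclei (Prkg1 from -0.45 to 0.80 and App from -0.78 to 0.41, for example), and without PE-low 1 7 of 45 did for treatment (Iigp1 from 1.07 to -0.22) and 2 of 59 against endothelial-gated nuclei. Genes called for treatment were 3, and with RLE size factors 5, without the low-count filter 6, with a replicate block 1, leaving out 1 library 0 to 16, with at least 4 mural genes 0, without an upper limit on genes 14, without members that held markers of other cell types 0, at a mitochondrial limit of 15% 0 and with no such limit 0. Against endothelial-gated nuclei 62 genes became 33 at an adjusted p under 0.05, 167 without the filter, 33 with DESeq2, 24 to 50 leaving out 1 library (30 without PE-low 1, 34 without PE-low 2, 24 without PE-high 1), 0 at a mitochondrial limit of 3%, 31 with at least 4 mural genes, 5 with at least 1000 UMIs, 37 without an upper limit on genes and 95 at 15%. Against fibroblast-gated nuclei 0 became 7 without the filter, 5 with DESeq2, 38 without PE-high 1, 3 with at least 4 mural genes, 4 without members that held other markers, 1 at 15% and 2 with no mitochondrial limit. Against all other kept nuclei 1964 became 1276 without TMM, 1283 with DESeq2, 645 to 1466 leaving out 1 library (1070 without PE-low 1, 704 without PE-low 2, 645 without PE-high 1), 0 at 3%, 836 with at least 1000 UMIs and 1020 without an upper limit on genes. The interaction called 0, with 1 without the filter and 0 to 32 leaving out 1 library (32 without PE-low 1, chosen after seeing the data). The causes were not tested. Treatment, fibroblast and interaction fits could not be made at 3%, nor the treatment fit at 1000 UMIs.

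The replicate block (pairing by number) was run on treatment only, where the numbers were not shown to pair the libraries. The share of mural nuclei was lower with PE-high EVs under every setting run, in some from very few nuclei. At a mitochondrial limit of 3% the counts were 2, 1, 0 and 0. The PE-high 1 interval there, 0% to 0.254%, covered both PE-low shares (0.0720% and 0.0334%), so this setting shows no direction. With at least 1000 UMIs the counts were 12, 10, 5 and 0. Limits were the 2 libraries per group, the 7 nuclei and 4637 UMIs behind PE-high 2, PE-low 1 standing apart in interferon-induced genes, and markers of other cell types in 27 of 61 members.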
